A study of Mus musculus with 6 samples.

Results

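Binding of the transcription factor RUNX1 was examined around 10 genes of the Hippo pathway and its DNA-binding partners. They were Yap1, Wwtr1, Tead1, Tead2, Tead3, Tead4, Lats1, Lats2, Vgll4 and Amotl2. A peak was assigned to a gene when its summit, the position of highest read coverage, lay in the annotated gene body or within 50 kb of either end. The 10 genes of 21900 protein-coding genes in the annotation took 79 of the 51515 peaks deposited for the series. The samples were RUNX1 chromatin immunoprecipitation (ChIP-seq) libraries from granulosa cells, the somatic cells around the oocyte, of CBA x C57BL/6 F1 mice aged 21 days. Animals received 5 IU of eCG, a gonadotropin that drives follicle growth, and 5 IU of hCG, which acts in place of the ovulatory luteinising hormone surge, 46 h afterwards. The groups were pre-ovulatory cells (0 h after hCG, 2 libraries) and peri-ovulatory cells (6 h after hCG, 2 libraries), each with 1 pooled input. Every sample carries 1 identical dosing text, which mentions collection at 6 h alone, and the 0 h libraries were therefore grouped by title and time label. Nothing in the labels says how many animals gave a library or that replicates came from separate animals, so p-values measure only the spread between these libraries. Peak lists hold no expression values, and the identity of the cells could not be checked against marker genes.

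The Hippo pathway is a kinase cascade that limits tissue growth. LATS1 and LATS2 phosphorylate the coactivators YAP1 and TAZ (the product of Wwtr1), which holds them in the cytoplasm. Unphosphorylated YAP1 and TAZ enter the nucleus and act on target genes through the DNA-binding TEAD1 to TEAD4 proteins. VGLL4 competes with YAP1 for TEADs, and AMOTL2, of the angiomotin family, retains YAP1 outside the nucleus. LATS2 and AMOTL2 are also known targets of YAP1 and TEAD, so they form negative feedback. In the ovary the pathway is known for restraining follicle growth and for its part in granulosa cell proliferation.

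Promoter sequences are shown for the members whose promoter window (250 bases before to 50 after a start site) held a peak summit of both 6 h libraries and a motif match. The sequences and start sites are from RefSeq on GRCm38.p6, the assembly also called mm10, and 8 of the 10 members had an entry. Tead1 and Tead4 had none. Of these 8, Yap1, Wwtr1, Lats1, Lats2 and Amotl2 had such summits. Both strands were searched for TGTGGT, the core bound by RUNX proteins, and for GGAATG, the core bound by TEAD proteins. Capitals mark these matches, and no match overlapped another. The first 3 sequences are the 250 bases before the start site. The last is a stretch of 30 bases around the match of Lats2, which lies just after its start site.
Amotl2, chr9:102717554-102717803, plus strand: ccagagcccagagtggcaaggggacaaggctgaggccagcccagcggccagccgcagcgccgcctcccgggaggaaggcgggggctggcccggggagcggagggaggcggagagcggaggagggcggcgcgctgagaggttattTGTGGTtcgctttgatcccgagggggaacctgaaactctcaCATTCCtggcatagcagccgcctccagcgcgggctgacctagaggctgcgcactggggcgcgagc
Yap1, chr9:8004597-8004846, minus strand: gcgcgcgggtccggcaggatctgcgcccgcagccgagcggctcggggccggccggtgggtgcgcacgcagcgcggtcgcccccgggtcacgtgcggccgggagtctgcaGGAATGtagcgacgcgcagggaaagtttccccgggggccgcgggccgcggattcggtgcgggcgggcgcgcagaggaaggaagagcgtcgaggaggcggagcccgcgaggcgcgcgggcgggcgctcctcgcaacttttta
Wwtr1, chr3:57575911-57576160, minus strand: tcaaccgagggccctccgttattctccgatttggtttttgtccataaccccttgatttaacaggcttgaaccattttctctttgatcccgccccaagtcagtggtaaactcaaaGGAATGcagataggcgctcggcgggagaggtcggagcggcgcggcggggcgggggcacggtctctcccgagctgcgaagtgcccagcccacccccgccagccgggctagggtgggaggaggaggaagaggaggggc
Lats2, chr14:57746102-57746131, minus strand: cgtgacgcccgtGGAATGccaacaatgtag

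The Amotl2 promoter was the single member promoter with TGTGGT, at 102717698 to 102717703 on chromosome 9. The summit of 6 h replicate 2 lay on that match, and the summit of 6 h replicate 1 lay 11 bp from it. The 0 h summits lay 32 bp (replicate 1) and 35 bp (replicate 2) from it, on opposite sides. Amotl2 also held a TEAD match, 38 and 52 bp from the 6 h summits of replicates 2 and 1 and 73 and 1 bp from the summits of 0 h replicates 1 and 2. In Yap1 the TEAD match lay under the summit of 6 h replicate 2 and 13 bp from that of replicate 1. In Wwtr1 the distances were 27 and 31 bp, and in Lats2 18 and 22 bp, in replicates 2 and 1. The Lats1 window held neither match.

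TEAD matches were thus present in 4 of the 5 member genes with a summit in the promoter window, and the RUNX match in 1 of 5. Of all 4096 genes with a replicated 6 h summit in a promoter window, 9.45% held a TEAD match and 14.0% a RUNX match. Of all 27025 genes with a promoter entry, the shares were 16.6% and 18.9%. The median distance from summit to match in such promoters was 93 bp for TEAD (quartiles 42 and 156 bp, 409 summits) and 60 bp for RUNX (601 summits). The members were not sampled at random and no test was made of these counts. A match describes the letters and shows no binding by either factor.

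**Figure D1:**
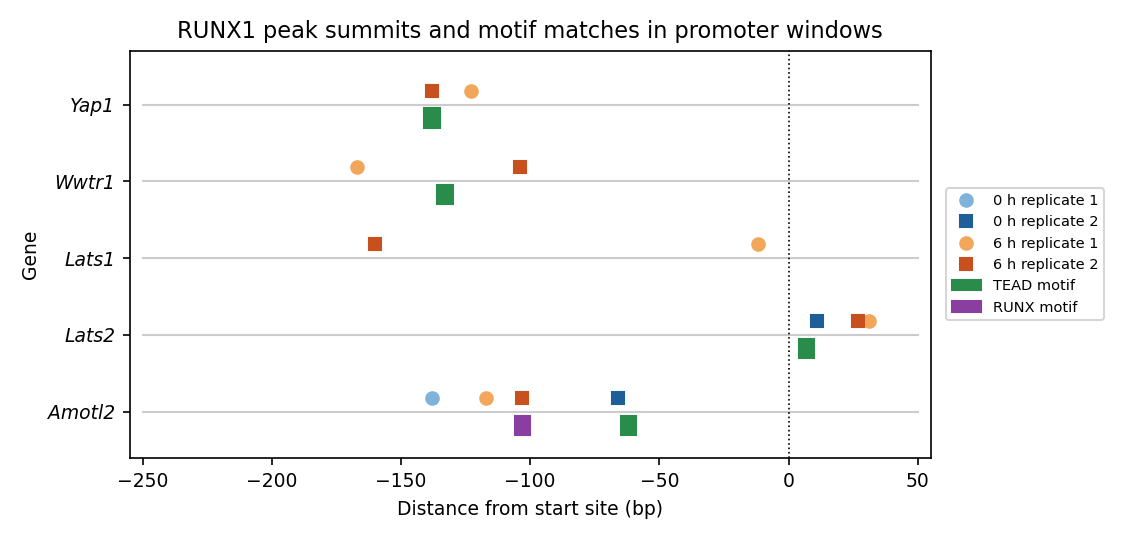
Positions of RUNX1 peak summits (circles, replicate 1; squares, replicate 2) and of motif matches (boxes, to scale) relative to the start site at 0, in bp, for the 5 genes with summits of both 6 h libraries in the promoter window. Amotl2 has summits of all 4 libraries; Lats2 has 1 of 0 h replicate 2, after the start site.

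The deposited lists held 948 and 3135 peaks for the 0 h replicates and 18761 and 28671 for the 6 h replicates. All 10 genes had peaks in both 6 h libraries, beside 69.3% (replicate 1) and 76.1% (replicate 2) of all coding genes. At 0 h, 7 had a peak in replicate 2, beside 28.2%, and 1 in replicate 1, beside 9.42%. The windows held 1 peak in 0 h replicate 1 and 7 in 0 h replicate 2, against 28 and 43 in 6 h replicates 1 and 2. Both 6 h libraries were above both 0 h libraries. The 0 h libraries averaged 4 ± 4.24 peaks and the 6 h libraries 35.5 ± 10.6 (SD, n = 2 per group), a log2 difference of 3.71 between the mean log2 numbers (exact permutation test over libraries, two-sided, p = 0.333, the smallest that 2 against 2 can give). Without 0 h replicate 1 the log2 difference was 2.31, and without 0 h replicate 2 it was 5.12. With each list limited to the 948 peaks of highest −log10 p it was 0.79 (exact permutation test, two-sided, p = 0.667). The length of the whole lists differed by 3.75 on the same scale. As a share of its list, the member peaks made up 0.105% (95% CI 0.00267 to 0.586) and 0.223% (95% CI 0.0898 to 0.460) at 0 h, and 0.149% (95% CI 0.0992 to 0.216) and 0.150% (95% CI 0.109 to 0.202) at 6 h. The intervals overlap, and those at 0 h are wide because they rest on 1 and 7 peaks. The mean share was lower at 6 h by less than the spread between the 0 h libraries (exact permutation test, two-sided, p = 1, where 0.333 is the smallest possible). The difference turned positive with 948 peaks per library and without 0 h replicate 2, so these lists do not settle its direction.

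For 8 of the 10 genes the peak number was higher in both 6 h libraries than in both 0 h libraries, and in none was it lower in both. The background for this was 64.6% of all coding genes in the first direction and 0.00457% in the second. Vgll4 and Amotl2 were the exceptions. Vgll4 had 0 and 1 peaks at 0 h and 1 and 5 at 6 h, and Amotl2 had 1 and 1 at 0 h and 1 and 3 at 6 h. Each had an equal number in 6 h replicate 1 and in a 0 h library. With 948 peaks per library, the length of the shortest list, the count of 8 became 1, which was Vgll4.

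**Figure D2:**
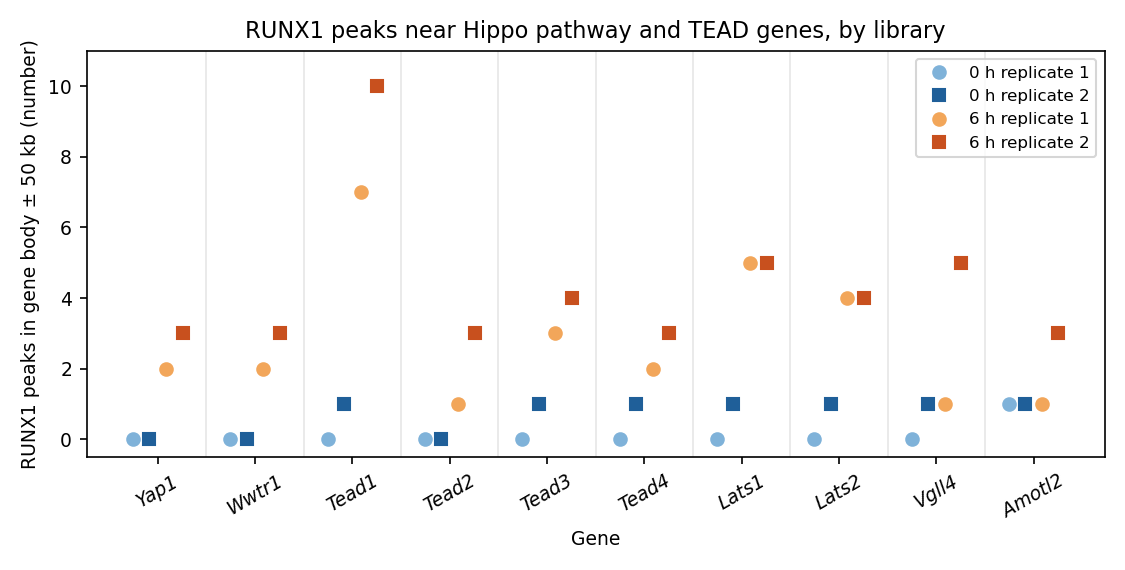
Number of RUNX1 peaks (vertical axis) in the gene body and 50 kb on each side, for each of the 10 genes and each library (circles, replicate 1; squares, replicate 2; blue, 0 h; orange, 6 h). Tead1 has the highest numbers at 6 h, 7 and 10, and only Amotl2 has a peak in 0 h replicate 1.

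Replicated regions, intervals in which peaks of both replicates of a time point overlap by at least 1 bp, were found near 1 member at 0 h and near 10 at 6 h. The single gene at 0 h was Amotl2. The background was 8.75% of coding genes at 0 h and 68.8% at 6 h. The 10 genes at 6 h became 2 when each list was limited to 948 peaks. The single gene at 0 h became 7 when the peaks of 0 h replicate 2 alone were counted, without replicate 1, and 0 when overlap of 50% of both peaks was required. The 10 windows had a median length of 165 kb, against 117 kb over all coding genes, and a longer window takes in more peaks. Per window the members had a median of 2 replicated regions at 6 h (range 1 to 7), and all coding genes also had a median of 2. Per 100 kb of window the medians were 1.16 and 0.969. Yap1, Wwtr1 and Tead2 had a replicated 6 h region and no 0 h peak in the window, which is 3 of 10 beside 40.4%. A 6 h region that overlapped a 0 h peak was present for 7 of 10, beside 27.7%. Close to the gene, 8 of 10 members had a replicated 6 h region within 1 kb of a gene end, beside 37.2% of coding genes. Tead4 and Vgll4 had none there. A peak of 0 h replicate 2 lay that close in 4 of 10 (Tead1, Lats1, Lats2 and Amotl2), beside 8.04%. A replicated 0 h region did in 1 of 10 (Amotl2), beside 1.49%.

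**Figure D3:**
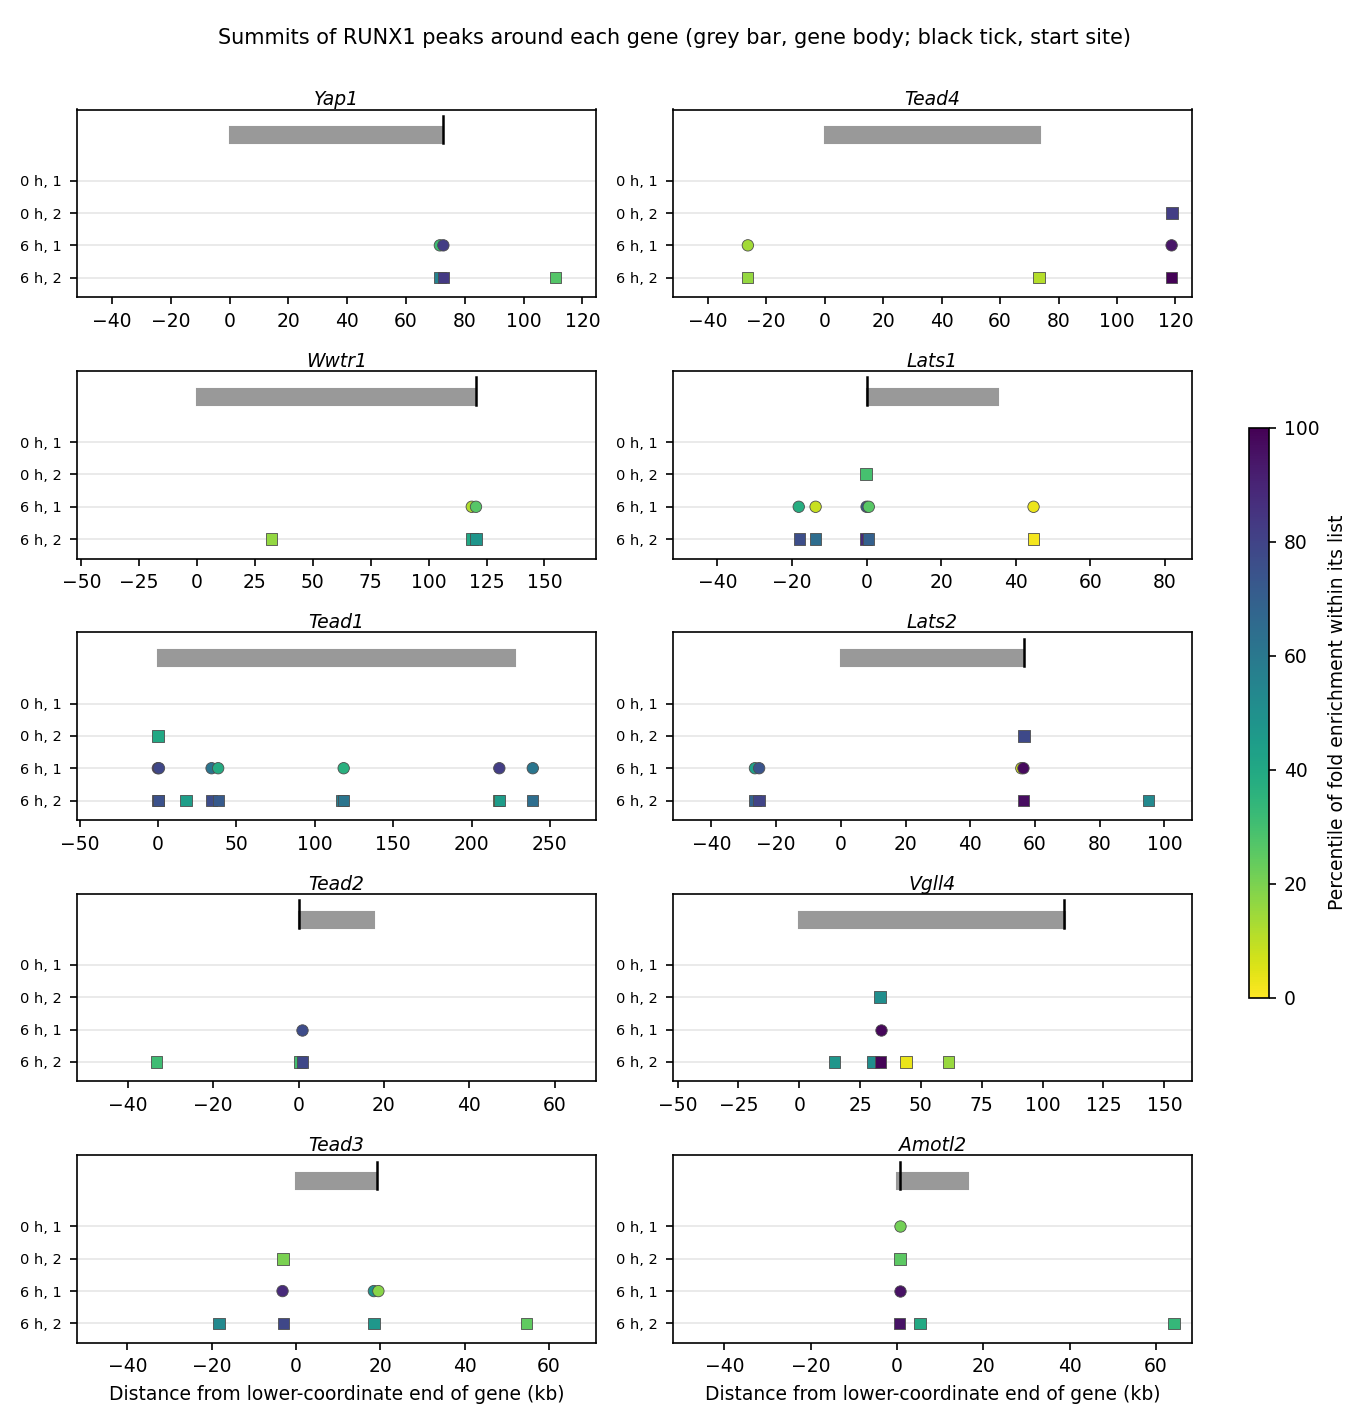
Summits of RUNX1 peaks (circles, replicate 1; squares, replicate 2) around each gene, as distance in kb from the lower-coordinate gene end, 1 row per library; grey bars are gene bodies, black ticks the first start site in RefSeq. Colour gives the percentile of fold enrichment within the list. Both 6 h replicates have a summit in a promoter window of Yap1, Wwtr1, Lats1, Lats2 and Amotl2. Other summits of these genes lie farther away. The darkest points of Vgll4 lie inside the gene.

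The coactivator genes Yap1 and Wwtr1 had no peak in either 0 h library. At 6 h Yap1 (chromosome 9, 7931999 to 8004638) had 2 peaks in replicate 1 and 3 in replicate 2. Its highest region, at 8004389 to 8005028, had summits at positions −123 and −138 relative to the start site, in replicates 1 and 2. Its fold enrichment, the read pileup over the local background as the authors deposited it, was 14.1 in replicate 1 and 19.2 in replicate 2. It ranked at percentiles 82.3 and 83.2 of its lists, a percentile being the rank of a peak by fold within its list, with 100 the highest. A weaker region at 8003349 to 8004235, inside the gene about 1 kb from the start, had a fold of 7.12 and 11.5. The third peak of replicate 2 lay 38212 bp from Yap1 and 25 bp from an end of Cfap300.

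Wwtr1 (chromosome 3, 57455644 to 57575910) had its wide region across the start, at 57574832 to 57576462. The fold there was 6.73 and 10.4, at percentiles 26.3 and 47.9. By −log10 p it stood at 42.4 and 61.0, so its place below the middle of the replicate 2 list holds for the fold alone. Its width of 1631 bp was the second of the 26 replicated member regions, after that of Amotl2. A region of 288 bp at 57574142 to 57574429, inside the gene, had a fold of 5.58 and 9.5. Both genes therefore had their leading 6 h region at the start site, with Yap1 the higher in rank.

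What a 0 h list could hold depends on the background at the site. At the commonest background of the 0 h lists, 2.77 and 2.65 reads, a pileup of at least 18 and 17 reads was needed to reach the −log10 p of 9 at which the lists end. These correspond to a fold of 5.04 and 4.93 at that background alone. Over a higher background more reads and a lower fold are needed. The 0 h background at sites without a 0 h peak is not given in the lists. The pileup at the Yap1 start site at 6 h was 54 and 61 reads over a background of 2.89 and 2.24. At the Wwtr1 start it was 49 and 61 reads over 6.43 and 4.97. A 0 h signal too low to be called would not have been detectable in these lists.

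Tead1 (chromosome 7, 112679356 to 112906784), the longest of the 10 genes, had 0 and 1 peaks at 0 h and 7 and 10 at 6 h. It had 7 replicated regions, more than 94.6% of coding genes, in a window of 327 kb. The region at the lower-coordinate end, 112678790 to 112679387, was the one also called at 0 h. Its fold was 6.84 in 0 h replicate 2, and 21.1 and 16.9 in 6 h replicates 1 and 2. The 6 h summits lay 6 and 19 bp from the 0 h summit. A second region, at 112679602 to 112680216 just inside the gene, had 13.0 and 16.0 and no 0 h peak. Of the other 5, 4 lay inside the gene and 1 lay 11369 bp beyond its upper end, with folds between 7.5 and 16.4.

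Tead2 (chromosome 7, 45215792 to 45233468), a TEAD known from the early embryo, had no peak at 0 h. At 6 h it had 1 peak in replicate 1 and 3 in replicate 2. The replicated region at 45216511 to 45216855 lay inside the gene, 892 bp after the start. The fold was 12.7 and 17.1, at percentiles 77.2 and 78.5.

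Tead3 (chromosome 17, 28331671 to 28350805) had 0 and 1 peaks at 0 h and 3 and 4 at 6 h. Its 0 h peak belonged to a region at 28327938 to 28329379, which spans an end of Rpl10a, the neighbouring ribosomal protein gene. The region's summit lay just inside Rpl10a, 190 bp from that end and 3010 bp from Tead3. That region had a fold of 5.92 in 0 h replicate 2, and 16.6 and 17.2 at 6 h. The replicated region inside Tead3, at 28350021 to 28350308, had 8.47 and 10.3 and no 0 h peak. The closest start site lay 198 and 208 bp before its summits. The higher region of this window was thus nearer to another gene than to Tead3.

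Tead4 (chromosome 6, 128227143 to 128300813) showed the same with a larger gap. It had 0 and 1 peaks at 0 h and 2 and 3 at 6 h. The 0 h peak and the strongest 6 h region, at 128345558 to 128346066, lay inside Tulp3, 45019 bp from Tead4. The fold was 9.86 in 0 h replicate 2, 21.8 in 6 h replicate 1 and 55.2 in 6 h replicate 2. In fold, the 6 h replicates thus differed from each other by more than 6 h replicate 1 differed from 0 h replicate 2. The pileup was 35 reads in 0 h replicate 2 and 81 and 172 reads in 6 h replicates 1 and 2. The background was 2.65 reads in 0 h replicate 2 and 2.76 and 2.13 in 6 h replicates 1 and 2. Within 10 kb of Tead4 there was no replicated region. A single peak of 6 h replicate 2 lay inside the gene, 320 bp from its upper end, with a fold of 6.53.

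The kinase gene Lats1 (chromosome 10, 7681200 to 7716461) had 0 and 1 peaks at 0 h and 5 and 5 at 6 h. All 5 were replicated, more regions than in 85.7% of coding genes. The highest, at 7680660 to 7681352, lay over the start of Lats1, where the gene Pcmt1 overlaps the summits. Its fold was 6.38 in 0 h replicate 2, and 11.7 and 22.4 in 6 h replicates 1 and 2. Relative to the start site the 6 h summits stood at −12 and −160 and the 0 h summit at −274. The region at 7681556 to 7681939, inside Lats1, had 6.70 and 14.4, and its summit lay 413 bp from an end of Pcmt1. The other 3 had their summits nearest to other genes, with 16 bp to an end of Nup43, 62 bp to Katna1 and 147 bp to A630066F11Rik.

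Lats2 (chromosome 14, 57689662 to 57746212) had 0 and 1 peaks at 0 h and 4 and 4 at 6 h. The region over its start, at 57745760 to 57746615, where the coding gene Gm52140 overlaps the summits, was among the highest of the members. The fold was 9.31 in 0 h replicate 2, at percentile 78.1, and 28.5 and 36.1 in 6 h replicates 1 and 2, at percentiles 97.6 and 96.6. All of its 3 summits fell between 11 and 31 bp after the start site, close to the TEAD match printed above. A pair of further replicated regions lay inside Xpo4, 25273 and 26547 bp from Lats2, with folds from 7.98 to 17.5. Both kinase genes thus carried a start-site region that was called in 0 h replicate 2 and in both 6 h libraries, and Lats2 had the higher fold in each of these.

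Vgll4 (chromosome 6, 114860621 to 114970007) had the highest-ranking region of the 10 genes. It lay inside the gene at 114893551 to 114894820, with 6 h summits 75176 and 75213 bp after the start site. Exons and introns were not separated in the annotation used. The fold was 7.38 in 0 h replicate 2, 30.6 in 6 h replicate 1 and 51.7 in 6 h replicate 2, at percentiles 51.0, 98.2 and 99.1. Among all 17190 replicated 6 h regions it ranked 278th by mean percentile. The pileup was 37 reads in 0 h replicate 2 and 226 and 256 reads at 6 h, or 6.11 and 6.92 times as high. The 6 h summits lay 48 and 11 bp from the 0 h summit. The peak nearest to the Vgll4 start site in the 4 libraries lay 47359 bp from it, inside the gene, in 6 h replicate 2. With 948 peaks per library, Vgll4 and Amotl2 were the members that had a replicated 6 h region.

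Amotl2 (chromosome 9, 102717091 to 102733418) was the one member called in all 4 libraries. The region at its start, 102717201 to 102718833 at 6 h, contained the 0 h region at 102717309 to 102718002. The pileup was 61 and 65 reads in the 0 h replicates and 153 and 174 reads in the 6 h replicates. The 6 h libraries were above the 0 h libraries by at least 2.35 times. The local background went the other way, with 9.38 and 9.68 reads in the 0 h replicates and 5.63 and 4.35 in the 6 h replicates. The fold in the 0 h replicates was 5.97 and 6.18, and in the 6 h replicates it was 23.2 and 32.7. Within its list the region stood at percentile 21.4 in 0 h replicate 1 and 25 in replicate 2. In the 6 h replicates it stood at 95.4 and 95.3, in far longer lists. By −log10 p the 0 h percentiles were 67.4 and 81.2 and those at 6 h 96.7 and 96.9, so the low 0 h rank holds for the fold alone. The part of the input and of local read density in this difference was not tested. At 6 h the peak was 1565 and 1633 bp wide, against 331 and 694 bp at 0 h.

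**Figure D4:**
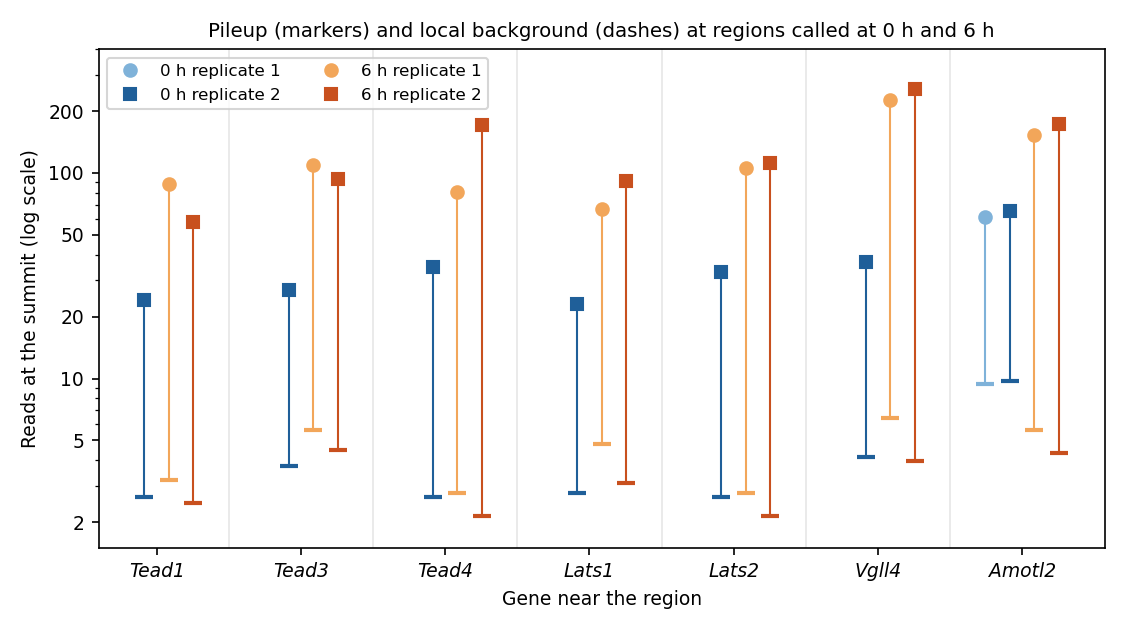
Reads piled up at the summit (markers) and local background (dashes), recovered from the deposited fold and p-value, on a log axis, for the 7 regions with a 0 h peak; circles are replicate 1, squares replicate 2, blue 0 h and orange 6 h. At each region both 6 h pileups are above the 0 h values, as in 96.4% of all regions with a peak of 0 h replicate 2, and at Amotl2 the 0 h background is above that of 6 h.

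Of the 26 replicated 6 h regions near the members, 7 overlapped a 0 h peak and 19 did not, against 83.5% without one among all replicated 6 h regions. The 19 of 26 became 1 of 2 with 948 peaks per library, 10 of 13 in gene bodies alone, and 36 of 43 without 6 h replicate 1. Without 0 h replicate 2 it was 25 of 26, and with overlap of 50% of both peaks required it was 25 of 25. The 7 were the ones described above, 1 each for Tead1, Tead3, Tead4, Lats1, Lats2, Vgll4 and Amotl2. All 8 member peaks of the 0 h lists overlapped a replicated 6 h region. So did 92.2% and 94.7% of all peaks of 0 h replicates 1 and 2. In each of the 7 regions both 6 h pileups were higher than that of 0 h replicate 2, by 2.31 to 6.92 times. So were those of 96.4% of all 2778 replicated 6 h regions with a peak of 0 h replicate 2. The median ratios over these regions were 2.78 and 3.33 in 6 h replicates 1 and 2, against 3.21 and 3.44 over the 7. The commonest background was 2.65 in 0 h replicate 2 and 2.76 and 2.13 in the 6 h replicates. Both 6 h peaks were also wider than the 0 h peak in all 7 regions, by 1.62 to 6.2 times, as in 95.2% of the 2778. The median width ratios were 2.36 and 2.72 over the 2778 and 2.59 and 2.35 over the 7. 

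The regions called at both time points ranked high among the member regions at 6 h. All but the Amotl2 region had their 0 h peak in replicate 2 alone, so this grouping rests largely on that library. The mean percentile of fold of all these regions ran from 80.4 (Lats1) to 98.6 (Vgll4), with a median of 95.3. The 19 regions without a 0 h peak ran from 2.43 to 82.8, with a median of 55.4. The ranges overlapped only through the Yap1 start-site region at the top of the 19. Over all replicated 6 h regions the medians were 84.2 with a 0 h peak and 54.4 without. The lowest was the region near Katna1 in the Lats1 window, with a fold of 4.37 and 4.86.

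**Figure D5:**
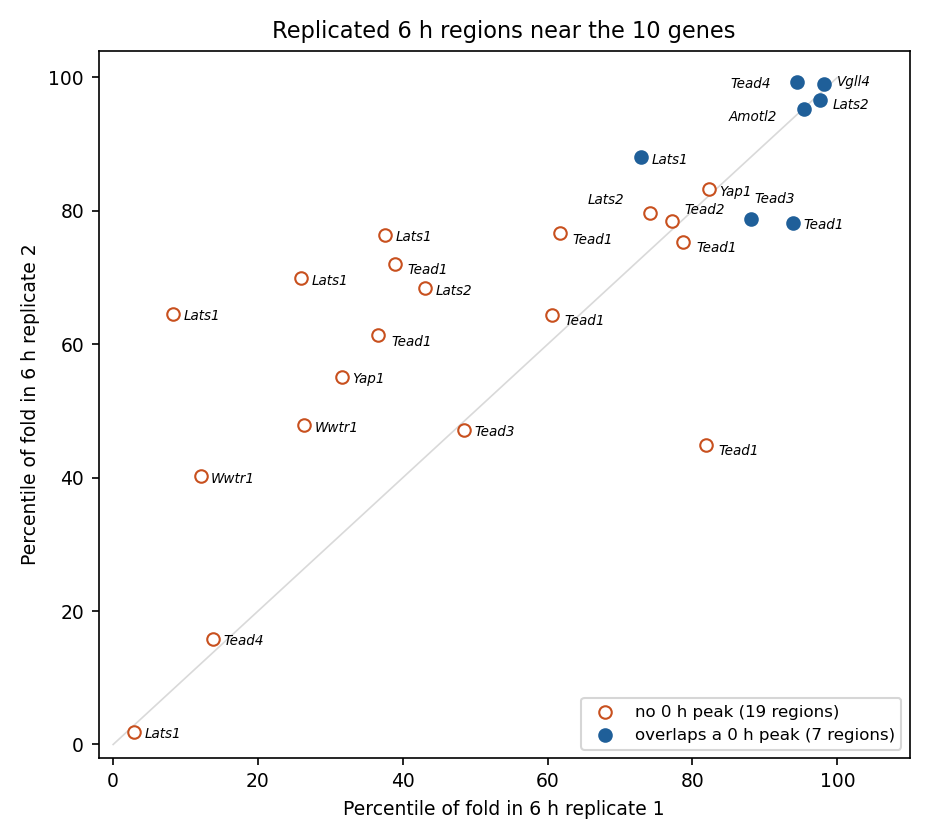
Percentile of fold within the list of 6 h replicate 1 (horizontal axis) and 6 h replicate 2 (vertical axis) for the 26 replicated 6 h regions, named by member gene; filled points overlap a 0 h peak, open points do not, and the line marks equal percentiles. Vgll4, Lats2, Tead4 and Amotl2 stand above percentile 94 in both replicates, and 1 region of the Lats1 window is the lowest.

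Other genes of the pathway were counted in the same way. Of 27 upstream and core genes, 25 had a replicated 6 h region within 50 kb, all but Amot and Vgll2, and 4 and 10 had a peak in 0 h replicates 1 and 2. The number of peaks was higher in both 6 h libraries than in both 0 h libraries for 25 and lower in both for 0. The highest-ranking regions were near Sav1, the scaffold of the upstream kinases, with a fold of 38.2 and 53.7, near Taok3 with 32.2 and 48.5, and near Stk38 with 27.6 and 30.1. These lay 795, 12596 and 24510 bp from an end of the gene, in that order. Of 20 genes listed as YAP1 and TEAD targets, 15 had a region. The exceptions were Igfbp3, Foxf2, Nt5e, Tgfb2 and Rbms3. A 0 h peak was present for 4 and 7 of them in replicates 1 and 2, and 13 had more peaks in both 6 h libraries. The highest was near Axl, a receptor tyrosine kinase gene, 7225 bp from a gene end, with 45.7 and 72.6. Asap1 followed with 22.1 and 40.2 and Arhgef17 with 19.3 and 26.6, at 124767 and 1050 bp from a gene end. Which gene lay nearest to each region of these lists was not determined. Among all coding genes, 68.8% had a replicated 6 h region and 64.6% had more peaks in both 6 h libraries. A peak of 0 h replicates 1 and 2 was present for 9.42% and 28.2%.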

How the data were processed

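The data are 4 deposited lists of RUNX1 ChIP-seq peaks from single-end reads of 75 nt. Per the submitters' processing notes, Bowtie2 2.2.5 and MACS2 were used with build mm10, and per the series design each time point had 1 pooled input. The version and settings of MACS2 and any filters are not given in the sources used here. The deposited values per peak are a fold enrichment (a ratio), a −log10 p, a −log10 q and a score, of which the authors' score was not used. Per the peak names in the files, peaks were called for each library separately.

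Genes came from NCBI RefSeq on GRCm38.p6, and 10 of 10 members matched by symbol. Coordinates count from 1. Replicated regions join overlapping peaks of both replicates, and the summit is that of the peak with the higher fold. Pileup and background were solved from fold and −log10 p with a pseudocount of 1, which succeeded for 79 of 79 member peaks with a tolerance of 0.005; the commonest background came from up to 900 peaks per list. Total read depth is unknown. Only the commonest background (2.13 to 2.77 reads) was at hand in its place, and whether it follows depth was not tested. Shares carry exact Clopper-Pearson 95% intervals, which cover counting error only. Time points were compared with exact permutation tests over libraries. No genome sequence was used here, so the planned motif counts at all summits were not analysed and promoter windows took their place. The named regions were, for each member, the highest-ranking 6 h region, those with a 0 h peak, every 0 h peak, and those within 1 kb of a gene end. Others are given where a count needed them. For the other pathway lists the 3 highest were named. The members and lists were chosen with earlier results of these data known. Code was tested on simulated data. Python 3.11.15, pandas 2.3.3, numpy 2.4.6 and scipy 1.17.1 were used.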

Additional observations from a re-analysis of the deposited data

How the results depend on the processing

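The log2 difference in member peak number kept its sign in all alternatives run, from 0.79 with 948 peaks per library to 5.12. Leaving out 1 library at a time gave 2.31 to 5.12. With replicate number as a replicate block it was 3.71 (exact sign-flip test, p = 0.5, the smallest possible). Same-numbered libraries did not deviate together in peak number (r = −0.029 across 21900 coding genes, which are not independent). At 0 h only 9.42% (replicate 1) and 28.2% (replicate 2) of these genes had a peak within 50 kb. Few genes thus had 0 h peaks to compare, so this value cannot decide whether replicate numbers pair the samples. The difference in share of the lists, −0.0148 percentage points, reversed to 0.105 with 948 peaks per library. It ranged from −0.0737 to 0.0441 without single libraries, the positive value without 0 h replicate 2. With peaks of −log10 q of at least 20 it was −0.103, in gene bodies alone −0.0214 and with a window of 10 kb −0.0402. With 948 peaks per library the members with a replicated 6 h region went from 10 to 2, those with non-overlapping numbers from 8 to 1 and the 6 h regions without a 0 h peak from 19 to 1. The last count was 10 in gene bodies alone and 19 to 36 without single libraries, 36 without 6 h replicate 1, when every peak of replicate 2 counts. The members with a 0 h region were 0 when an overlap of 50% of both peaks was required, since the Amotl2 peaks differ in width, and 1 to 7 without single libraries, 7 without 0 h replicate 1. Without single libraries the non-overlapping members were 8 to 10. Counting only regions whose nearest coding gene end is the member's, chosen after the data were seen, left 18 regions, 13 of them without a 0 h peak, and 10 members. Tead4 stayed through a region 26328 bp from it and 1153 bp from the pseudogene Gm4691. Ranking by −log10 p moved the mean percentile of the leading 6 h region of each member by −8.80 (Yap1) to 14.6 (Wwtr1). That of the 0 h region of Amotl2 went from 23.2 to 74.3. Motif counts around all summits were not run.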

Other observations

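TEAD matches also lay in promoter windows without a RUNX1 summit. Of the 12 RefSeq promoter windows of the members, 8 held GGAATG on either strand, from 6 of 8 genes, against 14.7% of all 32851 windows. Both windows of Wwtr1 are among the 8, and they overlap and share the same match. The 8 also included 2 of 3 windows of Tead3 and the window of Vgll4, which held no summit of any library. The windows of Tead2 and Lats1 held none. Across all windows the share was lower where a replicated 6 h summit was present (9.33% of 4384) than where no 6 h summit was (15.7% of 26502). TGTGGT was likewise found in 13.7% of windows with a replicated 6 h summit and in 17.5% without a 6 h summit. With the looser TGNGGT, searched after the data were seen, the shares of windows were 46.7% and 45.9%. By gene, 4 of 8 members had a TGNGGT match, beside 49.1% of 27025 genes. Among genes with a replicated 6 h summit in the window it was 1 of 5 members, beside 47.4% of 4096 genes. Base composition was not matched between these windows. The part it has in the shares was not tested.

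Of the 43 peaks of 6 h replicate 2 near the members, 17 (39.5%) overlapped no peak of replicate 1, beside 39.2% of its whole list. Of the 28 of replicate 1, 2 (7.14%), near Tead3 and Lats2, overlapped none of replicate 2, beside 3.65%. These counts were added after the data were seen. Vgll4 had 4 peaks of replicate 2 alone inside the gene, with folds from 5.24 to 10.8, and Tead1 had 3, from 6.58 to 11.8.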
